A study of Caenorhabditis elegans with 58 samples.

Results

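The strain labelled mir-35(mir-82_3') carries an edited mir-35 gene, and it was compared with wild type in embryos and in first-stage larvae (L1). The name is read here as a mir-35 microRNA (miRNA) whose 3' part was replaced by that of mir-82. The comparison used 12 of the 58 small-RNA libraries of the series, with 3 libraries per strain and stage, chosen by their labels alone. They were mir-82_3' replicates 1 to 3 and wild-type replicates 4 to 6, matched in order. The edited strain is MCJ191, with the genotype mir-35(cdb2 cdb 78) in the labels, and the wild type is N2. The allele cdb2 is shared by the edited mir-35 strains of the series. The strain may thus differ from wild type by more than the swap that names it, which was not tested. Nothing in the labels says whether a second isolate was made. All libraries came from whole hermaphrodite animals grown in bulk liquid culture. Embryos were freed by bleaching and were either frozen or rocked overnight without food, which gave starved L1. RNA reads were counted per mature miRNA arm.

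The mir-35 family of Caenorhabditis elegans is made of the guides mir-35 to mir-42, which share the seed, a short run of bases close to the 5' end that finds target messages by pairing. The family is needed for embryonic development, is abundant in embryos and is cleared before larval life. In the annotation used here, the 7 genes mir-35 to mir-41 follow each other without another miRNA gene between them, and these genes are transcribed as a cluster. The native mir-82 belongs to the mir-58 family, the nematode relatives of bantam, and lies on another chromosome. On the reading of its name given above, the strain joins the mir-35 seed to a 3' part of another family. The comparison addresses whether the edited guide is as abundant as the normal one and is cleared like it. A guide is the strand kept by Argonaute proteins, and the passenger is the strand that is usually discarded. A gene's name alone stands for its guide here. Passengers and other arms listed with an asterisk carry the arm in their name, as do arms of genes for which both are listed without one.

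The 12 libraries held 4456394 to 20402782 miRNA counts, and spike-in RNAs were counted at 0.0899 to 0.467 of the miRNA counts. Levels are given in CPM, where the total is that of miRNA counts and has been corrected by the library's TMM factor. Plain CPM use the total without that factor. Because whole animals were sequenced, fewer cells with a miRNA and less of it per cell cannot be told apart. No label says that replicates came from separate cultures, so the p-values measure the spread between libraries. In edgeR that spread was estimated over the 42 libraries of the mir-35 alleles, not from the 12 alone. The deposited table lists each edited mir-35 as its own sequence, and in the 12 libraries mir-35 was read from the sequence the strain carries. For seed_rev and seed_rev_no_bulge, edited strains not compared here, the main fit summed the sequences listed for both. Ligation and capture of the edited guide relative to the normal one were not measured. The listed sequences also checked the labels. In plain CPM, the mir-82_3' guide sequence had 6748 to 9198 in the embryos of its own strain and at most 31.9 in the 18 other embryo libraries. In L1 it had 81.9 to 562 in its own strain, and the highest of the 18 other L1 libraries had 29.7.

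Reads of alleles that a strain does not carry were present in every library. In plain CPM, the wild-type mir-35 guide was listed in the mir-82_3' libraries at 54.8, 136 and 105 in embryos and at 487, 44.5 and 243 in L1. The mir-82_3' guide was listed in wild type at 7.12, 28.6 and 14.8 in embryos and at 3.43, 3.70 and 8.15 in L1. The L1 library of mir-82_3' replicate 1 stands apart, because its own guide, at 81.9 plain CPM, was below the wild-type guide in the same library. From the reads of the mut_3' allele, which neither strain carries, an estimated 31.1% of the own guide count in that library was foreign too, and the source of such reads was not tested. The estimates were 0.931% and 1.77% in the L1 libraries of mir-82_3' replicates 2 and 3. The L1 difference of mir-35, its fall and the difference between the falls are therefore given with and without replicate 1.

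**Figure D1:**
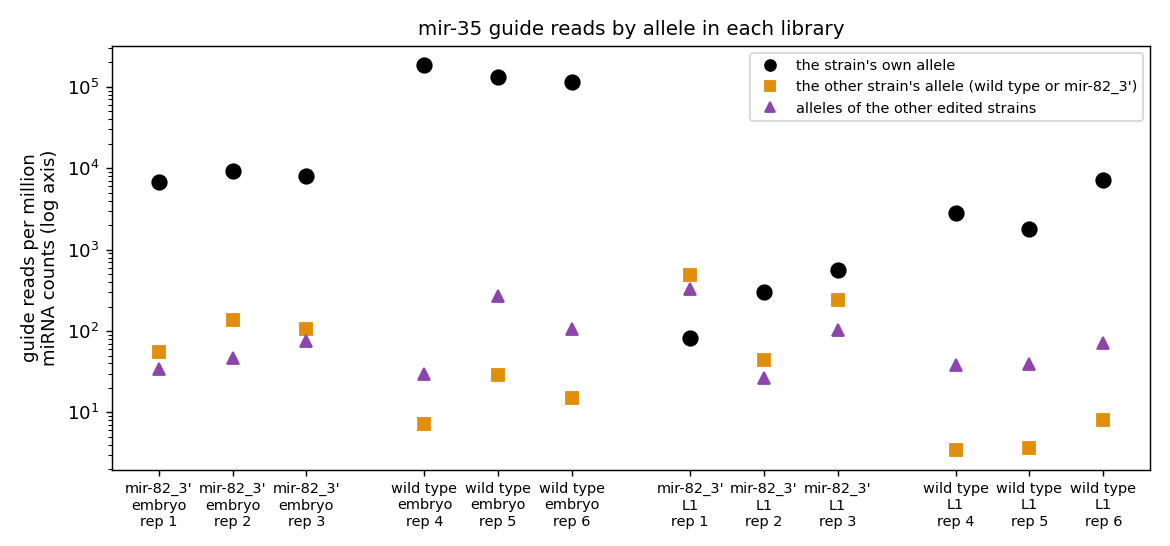
Guide reads of mir-35 in each of the 12 libraries, in plain CPM on a log axis, for the allele the strain carries (circles), the allele of the strain it is compared with (squares) and the alleles of the other edited strains together (triangles). The own allele leads in 11 libraries, and in mir-82_3' L1 replicate 1 it lies, at 81.9 plain CPM, below both others.

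In embryos, the edited guide reached a small fraction of the normal level. The mir-35 guide had 8785, 9426 and 8196 CPM in mir-82_3' embryos, against 242445, 183198 and 138975 CPM in wild-type embryos. The mir-82_3' embryos lay close together and all far below wild type. The mean was 8802 ± 615 CPM in mir-82_3' and 188206 ± 51916 CPM in wild type (SD, n = 3 each), and the fitted level in mir-82_3' was 4.68% of wild type, with a 95% interval of 1.82 to 12.04%. The difference of log2 -4.42 (SE 0.67) had an adjusted p of 2.59e-05 in edgeR's quasi-likelihood test. It was the 1 arm of 229 that passed the threshold of an adjusted p under 0.05 in embryos, which is 0.437% of the arms tested. No other arm passed, with 3 (1.31%) at an unadjusted p under 0.05, and DESeq2 also called mir-35 alone. Of the 229 arms, 8 (3.49%) were higher and 1 (0.437%) was lower in mir-82_3' with no overlap between the groups. In library terms, mir-35 fell to 0.801% ± 0.123 of all miRNA counts in mir-82_3' embryos, against 14.5% ± 3.58 in wild-type embryos.

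No other guide of the family passed with it. None of the 7 guides mir-36 to mir-42 passed the test between mir-82_3' and wild-type embryos, and their median difference was log2 0.10, beside 0.08 over all arms. The guide of mir-37 had 175698, 107076 and 168429 CPM in mir-82_3' embryos, against 151237, 115428 and 155195 CPM in wild-type embryos. Its groups overlap, and the difference was log2 0.10 (SE 0.56). The guide of mir-36 differed by log2 0.39 (95% interval -0.48 to 1.26) and that of mir-40 by log2 -0.05 (-1.31 to 1.20). Together mir-36 to mir-42 made up 28.8% ± 4.01 of miRNA counts in mir-82_3' embryos and 22.5% ± 3.75 in wild-type embryos. That difference did not pass a 2-sided exact permutation test (p = 0.3, where 3 against 3 cannot go below 0.1). Counting mir-35 as well, the family made up 29.6% ± 3.93 in mir-82_3' embryos and 36.9% ± 5.93 in wild-type embryos (exact permutation p = 0.2).

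A ratio inside each library needs no scaling factor. Relative to the geometric mean of its cluster neighbours mir-36 to mir-41, the mir-35 guide stood at 0.513, 0.719 and 0.552 in mir-82_3' embryos, against 17.6, 13.5 and 10.7 in wild-type embryos. It was at least 10.7 times that geometric mean in each wild-type embryo library, and below it in each mir-82_3' embryo library. A geometric mean is lowered by neighbours with few reads, such as mir-41 at 269 to 303 CPM in wild-type embryos. Against mir-37 alone, mir-35 was higher in wild-type embryo replicates 4 and 5. In replicate 6 it was lower, at 138975 against 155195 CPM. The log2 difference was -4.54 (exact permutation p = 0.1, 2-sided, the smallest that 20 splits can give). Against all 6 wild-type embryo libraries it was -4.08 (exact permutation p = 0.0119, the smallest that the added libraries allow).

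**Figure D2:**
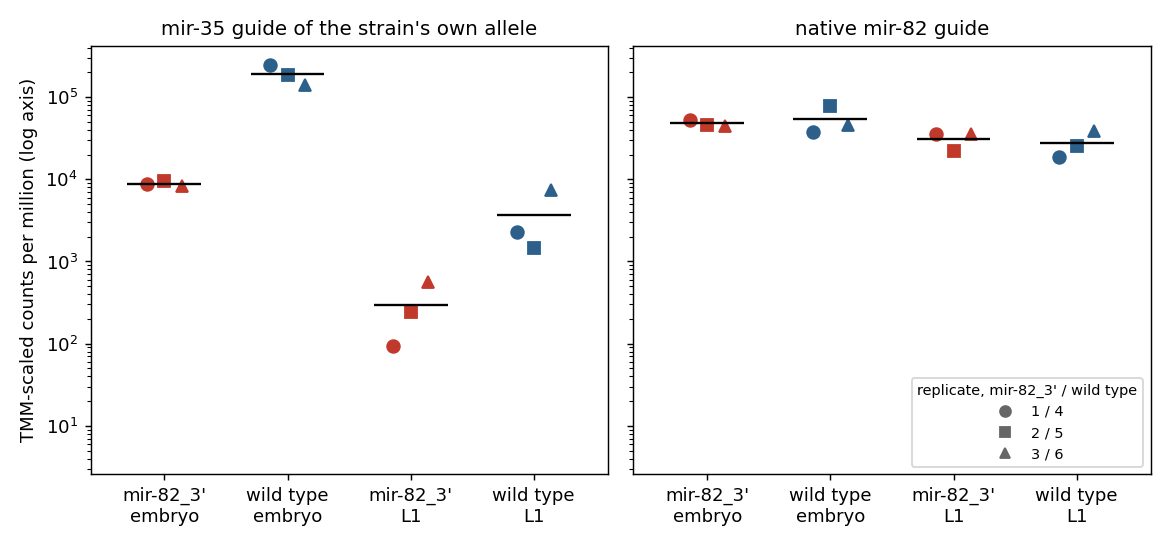
Levels of the strain's own mir-35 guide (left) and of the native mir-82 guide (right) in TMM-scaled CPM on a log axis, with 1 point per library and a bar at the mean of 3. The mir-35 points of mir-82_3' lie below those of wild type in both stages, with means of 8802 against 188206 CPM in embryos and 299 against 3698 CPM in L1, while the mir-82 points of the strains overlap.

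In L1 the edited guide was again lower. The mir-35 guide had 95.1, 241 and 562 CPM in mir-82_3' L1, against 2272, 1477 and 7344 CPM in wild-type L1. The groups do not overlap, but the range within each strain was wide, with replicate 1 lowest in mir-82_3' and replicate 6 highest in wild type. The fitted level in mir-82_3' L1 was 8.09% of wild type (95% interval 3.25 to 20.1%), a difference of log2 -3.63 (SE 0.65, edgeR adjusted p = 0.000527). Without mir-82_3' L1 replicate 1 it was -3.05 (adjusted p = 0.0503 in edgeR), which missed the threshold, and with the estimated foreign reads subtracted from every library it was -3.66. In the ratio to its cluster neighbours, mir-35 stood at 0.230, 1.27 and 0.952 in mir-82_3' L1, against 9.47, 7.71 and 18.1 in wild-type L1 (log2 difference -4.07, exact permutation p = 0.1).

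In L1, 2 of 229 arms passed the threshold between the strains, or 0.873%, with 10 (4.37%) at an unadjusted p under 0.05, and both were arms of mir-35. The groups did not overlap for 1 arm (0.437%) that was higher and 6 (2.62%) that were lower in mir-82_3'. DESeq2 called the same number, with 1 higher and 1 lower. None of the guides mir-36 to mir-42 passed, with a median difference of log2 0.49 beside -0.10 over all arms. Without wild-type L1 replicate 6, whose mir-35 level was the highest of its group, 9 arms other than those of mir-35 passed as well, all higher in mir-82_3'. They included mir-1819 (log2 1.86) and the passengers mir-36_5p* (2.96), mir-38_5p* (3.16), mir-39_5p* (3.47), mir-40_5p* (3.28) and mir-41_5p* (3.09). With all libraries mir-1819 had 40.9, 11.4 and 33.3 CPM in mir-82_3' L1, against 11.4, 9.74 and 12.6 CPM in wild-type L1 (log2 1.34, adjusted p = 0.382 in edgeR). Its groups overlap. The arms mir-796 and mir-1832a, named for this comparison in an earlier account of the series, did not pass here either. The mir-796 arm had 102, 17.6 and 12.7 CPM in mir-82_3' L1, against 23.9, 15.8 and 23.8 CPM in wild-type L1. The high value came from replicate 1.

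The next question is whether the edited guide was cleared between the stages as the normal one is. In mir-82_3', the mir-35 guide averaged 299 ± 239 CPM in L1 and 8802 ± 615 CPM in embryos (SD, n = 3 each), a fall of log2 -4.88 (SE 0.69, adjusted p = 5.75e-07 in edgeR). In wild type it averaged 3698 ± 3183 CPM in L1 and 188206 ± 51916 CPM in embryos, a fall of log2 -5.67 (SE 0.71, adjusted p = 6.77e-08). The fitted share left in L1 was 3.398% in mir-82_3' (95% interval 1.29 to 8.94%) and 1.96% in wild type (0.720 to 5.36%). The difference between the falls was log2 0.79 (SE 0.83, 95% interval -0.89 to 2.47, edgeR adjusted p = 0.950). Without mir-82_3' L1 replicate 1, the fall in mir-82_3' was -4.21 and the difference between the falls was 1.38 (adjusted p = 0.997 in edgeR). With each of the 12 libraries left out in turn, that difference ranged from 0.087 to 2.07, and the wild-type fall from -6.65 to -5.09. These data therefore show a fall in both strains and no difference between them that passed the test. The interval still allows the edited guide to have kept up to 2.47 log2 units more, or 0.89 less, than the normal one.

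Setting L1 and embryo libraries of the same number side by side, the mir-35 guide in plain CPM was in L1 at 1.21, 3.30 and 6.95% of the embryo level in mir-82_3', against 1.53, 1.34 and 6.24% in wild type. The strains overlap, and mir-82_3' replicate 3 and wild-type replicate 6 were the highest of their strains. The difference was log2 0.37 (exact permutation p = 0.8). Per spike-in count, whose mix of RNAs varied between libraries, the values were 0.831, 6.86 and 15.0% in mir-82_3', against 3.62, 4.45 and 5.92% in wild type. The neighbours give a measure for the same libraries, again in plain CPM. The mir-37 guide was at 2.04, 1.496 and 5.66% in mir-82_3', against 1.74, 1.73 and 4.25% in wild type. The mir-36 guide was at 1.38, 1.22 and 2.29% in mir-82_3', against 2.09, 2.61 and 1.74% in wild type. The mir-42 guide, which lies outside the run of 7 genes, kept more, at 9.27, 20.2 and 17.4% in mir-82_3' and 29.9, 16.1 and 20.2% in wild type. Measured against mir-36 to mir-41 in the same library, mir-35 moved between embryo and L1 by log2 -1.16, 0.82 and 0.79 in mir-82_3', against -0.90, -0.80 and 0.76 in wild type (difference 0.46, exact permutation p = 0.8).

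**Figure D3:**
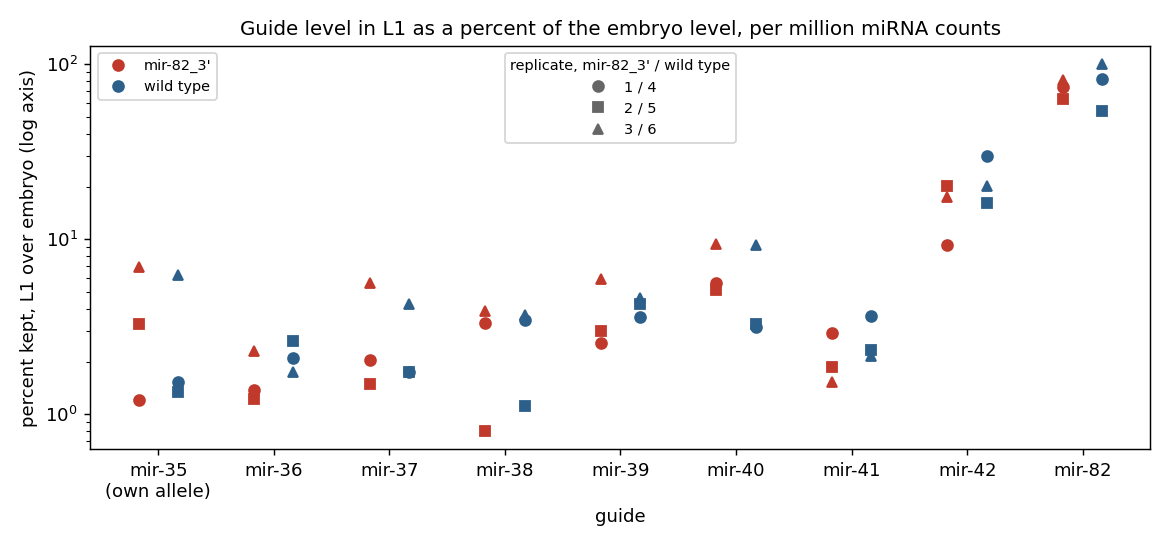
Level of each guide in L1 as a percent of its level in the embryo library of the same replicate number, in plain CPM on a log axis, for mir-82_3' and wild type. The mir-35 values of mir-82_3' (1.21 to 6.95%) and of wild type (1.34 to 6.24%) overlap, and the native mir-82 lies between 54.4 and 100% in both strains.

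The native mir-82, whose 3' part gave the allele its name, showed no difference between the strains that passed the test. Its guide had 52962, 45548 and 44681 CPM in mir-82_3' embryos, against 37147, 77522 and 45302 CPM in wild-type embryos (log2 -0.16, 95% interval -0.86 to 0.54, edgeR adjusted p = 0.967). In L1 it had 35124, 22292 and 35723 CPM in mir-82_3', against 18862, 25412 and 38367 CPM in wild type (log2 0.17, -0.53 to 0.87, adjusted p = 0.990). The groups overlap in both stages, and the sign of each difference changed with the scaling, to 0.36 in embryos and -0.06 in L1 by spike-ins. As a share of miRNA counts, mir-82 was 4.31% ± 0.208 in mir-82_3' embryos and 4.09% ± 1.43 in wild-type embryos, and 3.14% ± 0.393 in mir-82_3' L1 and 3.07% ± 0.720 in wild-type L1. Between the stages mir-82 changed by log2 -0.62 in mir-82_3' (adjusted p = 0.148 in edgeR) and fell by 0.95 on the log2 scale in wild type (adjusted p = 0.0259). The wild-type fall was lost by RLE factors (-0.84) and library totals (-0.41), and turned to 0.68 by spike-ins. It also did not pass when any of 9 of the 12 libraries was left out, among them mir-82_3' libraries, which are not in this comparison. The difference between the strains was 0.33 (95% interval -0.66 to 1.32, adjusted p = 0.950). In mir-82_3' the fitted share left in L1 was thus 3.398% for the edited mir-35 and 65.0% for mir-82, and in wild type 1.96% for mir-35 and 51.7% for mir-82. The difference between these guides was not tested.

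No member of the mir-58 family, to which mir-82 belongs, differed between the strains by the test. Of its 9 named members, 5 had enough counts to be tested, and none of mir-58a, mir-80, mir-81, mir-82 and mir-2209a passed between the strains in either stage. The mir-81 guide had the smallest unadjusted p among arms of other genes in embryos. It had 9784, 12700 and 10214 CPM in mir-82_3' embryos, against 6010, 74545 and 8693 CPM in wild-type embryos, with wild-type replicate 5 far above the other libraries (log2 -1.45, edgeR adjusted p = 0.967).

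Many arms changed between embryo and L1 in both strains. In mir-82_3', 89 of 229 arms changed at an edgeR adjusted p under 0.05, or 38.9%, with 36 higher (15.7%) and 53 lower (23.1%) in L1, and 111 (48.5%) had an unadjusted p under 0.05. In wild type 99 changed, or 43.2%, with 41 higher (17.9%) and 58 lower (25.3%), and 113 (49.3%) had an unadjusted p under 0.05. The stages did not overlap for 38 higher arms (16.6%) and 65 lower arms (28.4%) in mir-82_3', and for 43 (18.8%) and 59 (25.8%) in wild type. Of the arms that passed, 72 did so in both strains and all 72 had the same sign, which is 80.9% of the mir-82_3' calls and 72.7% of the wild-type calls. Across the 229 arms the log2 changes had a Pearson correlation of 0.909 and a Spearman correlation of 0.886, a description only, since arms of 1 library share its depth and scaling. No arm differed between the strains in its stage change by edgeR, with 6 (2.62%) at an unadjusted p under 0.05, or by DESeq2, with 15. The difference was within 1 log2 unit for 188 arms, and the median standard error was 0.755. The balance of rises and falls depended on the scaling, and on other settings with TMM factors kept. In mir-82_3' the main fit, with 36 higher and 53 lower, had a median change of log2 -0.36. That fit summed the sequences listed for both seed_rev strains, edited strains not compared here. Reading 1 sequence for each seed_rev strain gave 50 and 40, with a median of -0.004. With each library left out in turn, 39 to 50 were higher and 33 to 49 lower, so both main counts lie outside these ranges. In mir-82_3', the calls were 54 higher and 39 lower by RLE factors, which shifted the median arm by log2 0.45, and 45 and 40 by library totals, with a shift of 0.19. They were 41 and 8 by spike-ins, with a shift of 1.07, and 58 and 41 by DESeq2. In wild type, they were 54 and 38 by library totals, with a shift of 0.56, and 67 and 13 by spike-ins, with a shift of 1.76.

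**Figure D4:**
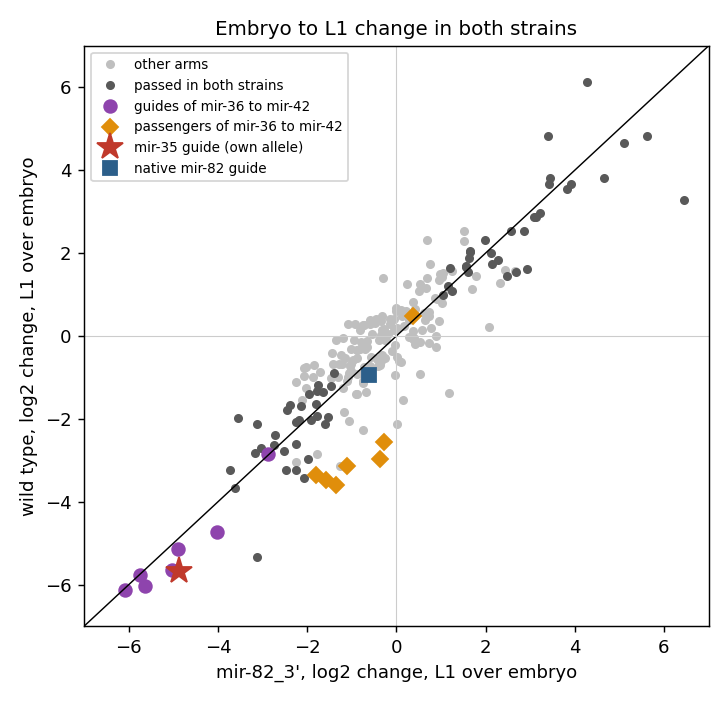
Change of each of 229 arms from embryo to L1, as log2 L1 over embryo from edgeR, in mir-82_3' (horizontal axis) and in wild type (vertical axis). The line marks equal change. The own mir-35 guide, at -4.88 and -5.67, lies among the guides of mir-36 to mir-41.

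All 8 guides of the mir-35 family fell in L1 in both strains. In mir-82_3' the guides mir-36 (log2 -6.09, SE 0.54), mir-41 (-5.75), mir-38 (-5.64), mir-37 (-5.03) and mir-39 (-4.89) had fitted falls at least as large as that of mir-35. The guides mir-40 (-4.02) and mir-42 (-2.89, SE 0.40) fell less. In wild type the same guides changed by -6.13 for mir-36, -5.77 for mir-41, -6.03 for mir-38, -5.65 for mir-37, -5.13 for mir-39, -4.73 for mir-40 and -2.84 for mir-42. These falls kept their sign under each scaling, but that of mir-42 did not pass with spike-ins in either strain. The median over mir-36 to mir-42 was -5.03 in mir-82_3' and -5.65 in wild type, beside -0.36 and -0.17 over all arms. The difference between the strains was at most 0.71 in size, for mir-40 (edgeR adjusted p = 0.950).

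Among the arms that rose and had a mean log2 CPM of at least 5, mir-71, which promotes survival of starved L1, led in both strains. It had 298291, 59953 and 150038 CPM in mir-82_3' L1, against 15057, 1482 and 3499 CPM in mir-82_3' embryos, a rise of log2 4.66 (SE 0.88). In wild type it had 99709, 60351 and 186969 CPM in L1, against 14105, 6078 and 4366 CPM in embryos, a rise of 3.82 (SE 0.84). Stages do not overlap in either strain. Other rises were those of mir-34_5p* (3.91 in mir-82_3', 3.68 in wild type), mir-230_3p (3.82 and 3.56) and mir-238 (2.87 and 2.54). The arms mir-243_3p (2.68 and 1.55), mir-45_5p* (2.48 and 1.46), mir-1821 (2.14 and 1.74) and mir-71_3p* (1.99 and 2.31) also rose in both. Without mir-82_3' L1 replicate 1 and wild-type embryo replicate 5, the libraries with the highest counts of foreign allele reads, the rise of mir-243_3p in mir-82_3' was 1.42. It then did not pass (adjusted p = 0.0668 in edgeR). The mir-790 guide rose by 2.09 in mir-82_3' (adjusted p = 0.0272 in edgeR) and had a change of 0.22 in wild type (adjusted p = 0.844). It had 24454, 1905 and 11593 CPM in mir-82_3' L1, against 3104, 2539 and 3285 CPM in mir-82_3' embryos, so the stages overlap and replicate 2 went the other way. The mir-790 change did not pass without mir-82_3' L1 replicate 1 (1.42) or without embryo replicate 2 (2.44), and the difference between strains did not pass either (1.87, adjusted p = 0.950). Falls outside the family guides included mir-73_5p* (-3.12 in mir-82_3', -2.13 in wild type) and mir-4813_5p (-3.12 and -5.34). In mir-82_3' that of mir-4813_5p did not pass without L1 replicate 2 (-2.22), L1 replicate 3 (-2.76) or embryo replicate 3 (-2.24). The wild-type rise of mir-1821 did not pass without L1 replicate 6 (1.35).

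Developmental timing miRNAs also changed between the stages in both strains. Of 8 tested members of the let-7 family with lin-4 and mir-237, 4 rose and 1 fell in mir-82_3', where 15.7% of all arms rose and 23.1% fell, and 5 rose and 2 fell in wild type, where the shares were 17.9% and 25.3%. None differed between the strains in either stage or in its change. The mir-84 guide, a let-7 relative, had 749, 887 and 696 CPM in mir-82_3' L1, against 119, 88.3 and 57.1 CPM in mir-82_3' embryos, a rise of log2 3.14 (SE 0.45), beside 2.88 (SE 0.44) in wild type. The lin-4 relative mir-237 rose by 3.44 in mir-82_3' and 3.82 in wild type, and lin-4 itself by 2.93 and 1.63. Over the 12 libraries lin-4 was low, with a mean log2 CPM of 1.24, beside 4.13 for mir-237. The wild-type rise of lin-4 did not pass without embryo replicate 4 (1.47) or L1 replicate 5 (1.55). The mir-48 guide fell by 1.78 in mir-82_3' and by 1.94 in wild type on the log2 scale, and neither fall passed by spike-ins. The other wild-type fall was that of mir-241 (-3.05, adjusted p = 0.0359 in edgeR), an arm with few reads and a mean log2 CPM of -0.50. That fall did not pass when any of 7 of the 12 libraries was left out. Not all of these were wild-type libraries. In the mir-51 (6 arms tested), mir-2 (4) and mir-44 (4) families, 1 arm each fell in both strains, which is near the share of all arms that fell. These were mir-51 (-1.54 in mir-82_3', -1.96 in wild type), mir-43 (-1.46 and -1.22) and mir-247 (-1.81 and -1.65). The last 2 also belong to the miRNAs linked to EBAX-1, which selects the substrates of a ubiquitin ligase and takes part in miRNA degradation. Of the 7 arms on that list, 1 rose and 2 fell in mir-82_3', beside 15.7% higher and 23.1% lower over all arms, and 2 rose and 3 fell in wild type, beside 17.9% and 25.3%. With so few arms these counts show nothing particular to the list. Of the markers of muscle (mir-1) and neurons (mir-124, lsy-6), none of 3 passed between strains or stages. The mir-1 guide had 94745 to 148332 CPM in mir-82_3' embryos, against 131881 to 160848 CPM in wild-type embryos, and 110397 to 242181 CPM in mir-82_3' L1, against 97599 to 175000 CPM in wild-type L1.

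The passenger strands gave less secure values. The listed mir-35 passenger had 63.8, 76.9 and 106 CPM in mir-82_3' embryos, against 6.70, 18.6 and 21.1 CPM in wild-type embryos (log2 2.41, SE 0.67, adjusted p = 0.111 in edgeR). With matched libraries as a replicate block the embryo difference was 2.34 and passed (adjusted p = 0.0435 in edgeR), and with the reads of all allele sequences summed it was -0.58 (adjusted p = 0.984). In L1 it had 38.8, 3.93 and 16.0 CPM in mir-82_3', against 1.07, 1.10 and 2.36 CPM in wild type (log2 3.76, SE 0.74, adjusted p = 0.00128). The groups do not overlap in either stage. However, the passenger sequence listed for mir-82_3' was also counted in libraries that do not carry it. In plain CPM, these 18 embryo libraries had 2.97 to 40.9 and the mir-82_3' embryos 49.0 to 105. In L1 the 18 others had 1.85 to 31.1 and mir-82_3' had 4.95 to 33.4, so that carriers and others overlap. The L1 difference did not pass without mir-82_3' L1 replicate 1 (2.94, adjusted p = 0.0620), and the part of foreign reads in it was not tested. Between the stages, the listed passenger fell by 2.08 on the log2 scale in mir-82_3' (adjusted p = 0.0107 in edgeR) and by 3.43 in wild type (adjusted p = 0.000267). The fall in mir-82_3' did not pass when any of 9 of the 12 libraries was left out. Some of these were wild-type libraries, which are not in this comparison, and every leave-out also shifted the scaling and the arms kept. The guide to passenger ratio of mir-35 was 138, 123 and 77.3 in mir-82_3' embryos, against 36177, 9864 and 6582 in wild-type embryos. In L1 it was 2.45, 61.3 and 35.04 in mir-82_3', against 2117, 1339 and 3111 in wild type (exact permutation p = 0.1 in each stage). In embryos the ratio was lower in mir-82_3' with a guide at 4.68% of wild type and a listed passenger at 531%. The value with summed alleles, given above, had the other direction but includes passenger reads of alleles a strain does not carry. Wild-type embryos had 5.11, 13.5 and 17.6 plain CPM of their own passenger and 10.8, 110 and 47.9 of the one listed for seed_rev. In mir-82_3' embryos the latter had 9.04, 13.5 and 17.3. For the native mir-82 the log2 ratio differed by 0.32 in embryos and by -0.30 in L1 (exact permutation p = 0.8 for each).

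None of the 7 passengers of mir-36 to mir-42 passed between the strains in L1, and all 7 had values above 0, with a median of log2 1.64 beside -0.10 over all arms. Passengers are named by the asterisk in the deposited table, and mir-41_5p* was above the arm listed as its guide. Their means were 1094 against 336 CPM in mir-82_3' embryos and 1451 against 289 CPM in wild-type embryos. In L1 they were 508 against 6.27 CPM in mir-82_3' and 165 against 5.26 CPM in wild type. For mir-41_5p* the levels were 1086, 75.0 and 363 CPM in mir-82_3' L1, against 89.6, 81.3 and 325 CPM in wild-type L1 (log2 1.62, edgeR adjusted p = 0.751). For mir-39_5p* they were 536, 27.8 and 180 CPM in mir-82_3' L1, against 35.2, 29.6 and 135 CPM in wild-type L1 (1.90, adjusted p = 0.725). In both cases replicate 1, the library with the most foreign allele reads, was the highest, and replicate 2 was below every wild-type library. Between the stages, 1 of the 7 passengers fell in mir-82_3' and 6 of 7 in wild type. The 1 was mir-37_5p*, whose call was lost when any of 11 of the 12 libraries was left out, wild-type libraries among them. Without mir-82_3' L1 replicate 1, mir-38_5p* (-2.50), mir-39_5p* (-2.41) and mir-41_5p* (-2.12) fell in mir-82_3' as well. In wild type, mir-36_5p* did not pass without L1 replicate 5 (-2.05). The difference in this change was tested for each and passed for none. It was largest for mir-40_5p*, at log2 2.59 (SE 1.05, adjusted p = 0.950).

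**Figure D5:**
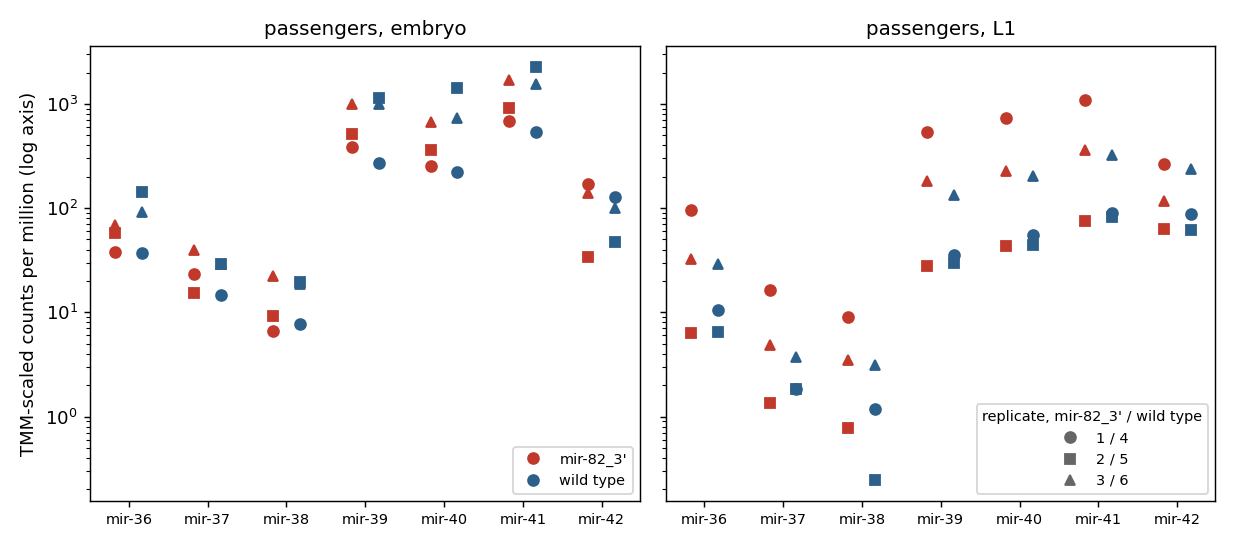
Levels of the passengers of mir-36 to mir-42 in embryos (left) and L1 (right), in TMM-scaled CPM on a log axis, with 1 point per library. In L1 the mir-82_3' points span a wide range, from 75.0 to 1086 CPM for mir-41, and replicate 1 of mir-82_3' is the highest of the 6 libraries for each passenger.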

How the data were processed

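Small RNAs were counted in 12 libraries compared here, within 42 libraries of the mir-35 alleles. Values are estimated counts for each miRNA arm, as deposited and not normalized: 296 lines, of which 276 are miRNA arms, 10 spike-ins and 10 edited mir-35 sequences. Of 3552 values in the 12 libraries, 154 end in 0.5; values were rounded to whole counts. Per the submitters' processing notes, the tools included HTSeq 0.13.5, SAMtools 1.13, Bowtie2 2.4.4, cutadapt 3.4 and DESeq2 (no version); a build was not given in the sources used here. The series' design text, on Argonaute mutants, does not match the labels and was not used.

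All 42 libraries in 14 groups were fitted with edgeR 4.0.16 in R 4.3.3 (quasi-likelihood, robust, TMM factors, filterByExpr with minimum count 10 and total 15), with no covariate. Of the arms, 229 were kept, and the biological coefficient of variation was 0.448. The p-values were adjusted by Benjamini-Hochberg over all arms, with a threshold of 0.05. Single values were tested by 2-sided exact permutation over libraries. Replicates differed by more than counting error, with a chi-square per degree of freedom of at least 883. DESeq2 1.42.0 was an alternative. The deviations of libraries in matched order (mir-82_3' replicates 1 to 3 with wild-type replicates 4 to 6, and L1 with embryo of a number) from their group means were correlated. All pairs had to exceed 0.1 to count as paired. This held between embryos of the strains (0.306 to 0.724), but not in L1 (-0.671 to 0.767), nor between the stages in mir-82_3' (-0.00613 to 0.436) or in wild type (0.0211 to 0.568). The pairing rests on the data, since no label gives it. Scripts were tested on simulated data. Figures used Python 3.11.15, pandas 2.3.3, scipy 1.17.1 and matplotlib 3.10.9.

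Foreign reads in an own guide were estimated from the reads of the mut_3' allele in the same library. These were multiplied by the ratio in which both occur in the libraries of the strain compared with it, at the same stage. There were no molecular identifiers, so depth covers counting error only.

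Members, lists and tests were chosen with earlier results of these data known. Named arms were both arms of mir-35 and mir-82, the family, list members, and up to 10 rises and 10 falls with the largest change among arms past the threshold and a mean log2 CPM of at least 5. Where fewer than 3 arms passed, the 5 with the smallest p were named. Alternatives covered the scaling, the tool, the filter, the libraries fitted, a replicate block, all 6 wild-type libraries per stage, summed alleles and each library left out. Subtracting foreign reads and reading 1 sequence for each seed_rev strain were added after seeing the data. So was leaving out both libraries with the most foreign reads by count, not in plain CPM (mir-82_3' L1 replicate 1 and wild-type embryo replicate 5).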

Additional observations from a re-analysis of the deposited data

Results flagged for a closer look

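Guide reads of the allele carried by the other strain compared were above the limit of a count of 3 in all 12 libraries. In plain CPM, that is relative to the total of miRNA counts without TMM factors, the wild-type mir-35 guide had 54.8 in mir-82_3' embryo replicate 1, 136 in replicate 2 and 105 in replicate 3. In mir-82_3' L1 it had 487 in replicate 1, 44.5 in replicate 2 and 243 in replicate 3. The mir-82_3' guide had 7.12 in wild-type embryo replicate 4, 28.6 in replicate 5 and 14.8 in replicate 6. In wild-type L1 it had 3.43 in replicate 4, 3.70 in replicate 5 and 8.15 in replicate 6. Their source was not tested. With 3 libraries per group, no test for a single outlying library was made. No arm's change between the stages differed between the strains by the test of that difference.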

How the results depend on the processing

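The mir-35 guide stayed lower in mir-82_3' in both stages under every alternative run. Its call in embryos and both stage falls held throughout. The L1 call was lost with all allele sequences summed (-2.13, adjusted p = 0.103), where foreign reads add to the low own count. The L1 passenger difference was lost by spike-ins (2.84), with summed alleles (1.53), with the replicate block in the fit of 12 libraries (3.99) and without both libraries with the most foreign reads (2.64). The embryo passenger difference passed by library totals (2.66), with the replicate block in the fit of 42 libraries (2.34) and against all 6 wild-type libraries (2.14), and turned to -0.58 with summed alleles. The strain difference in the passenger's stage change, 1.35, turned to -0.0807 by spike-ins. The passenger's stage fall in mir-82_3' was lost by RLE factors and DESeq2 (-1.48 each), spike-ins (-1.94), TMM factors without the family (-1.66), the 12 libraries alone (-1.66), with the replicate block there (-1.75), and with 1 sequence per seed_rev strain (-1.63), and turned to 0.19 with summed alleles. In wild type it was lost by spike-ins (-1.86), and by spike-ins the stage changes of mir-82 and mir-2209a turned to 0.68 and 0.26.

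Lower calls in mir-82_3' L1 fell to 8 by spike-ins and to 33 in the 12 libraries alone, with or without the replicate block, and higher calls reached 58 by DESeq2. In wild type lower calls fell to 38 by library totals, 13 by spike-ins and 32 in the 12 libraries alone, with or without the replicate block, and higher calls reached 67 by spike-ins. Beside the calls given with the replicate block, it changed no other main call in the fit of 42 libraries.

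With summed alleles, the log2 difference of the guide to passenger ratio was -4.45 in embryos and -3.25 in L1. That of the ratio to the neighbours was -2.46 in L1 and 2.05 in its change, and that of the share kept was 1.95. These sums include reads of alleles a strain does not carry. In mir-82_3' L1 replicate 1 the own guide had 81.9 plain CPM and the wild-type guide 487. They are thus not values of the edited guide alone, and the part of foreign reads in them was not tested. Against all 6 wild-type libraries the embryo ratio to the neighbours was -4.08.

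Leaving out 1 library at a time gave ranges of -4.41 to -2.36 for the L1 guide, 2.94 to 4.64 for the L1 passenger and -2.85 to -1.13 for the passenger's fall in mir-82_3'. Other arms called in L1 ranged over 0 to 9, with 1 called without mir-82_3' L1 replicate 2. Lower calls ranged over 33 to 49 in mir-82_3', all below the main 53, with 33 without L1 replicate 3 and 34 without embryo replicate 3. In wild type they ranged over 37 to 58, with 37 without L1 replicate 5. Leaving out any library, also one outside a comparison, changed the scaling and the filter, with 233 or 234 arms kept in place of 229. It moved the median arm of the mir-82_3' stage change by log2 0.22 to 0.37. The causes were not tested beyond what each alternative leaves out. Of the remaining comparisons of main values with alternatives, 526 kept direction and were labelled unchanged. Of these, 230 were edgeR or DESeq2 values on the same side of the threshold, and 128 were ratios and shares that moved by less than 1 SD between libraries. The other 168 were counts of arms, judged by a limit on their fold change, so that 36 and 54 higher calls in mir-82_3' counted as unchanged. A further 20, all of ratios and shares that did not pass, crossed 0 but moved by less than 1 SD between libraries. Among single arms, 352 values that passed in neither setting changed sign.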
